A study of Mus musculus with 9 samples.

Results

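The 10 genes described here code for enzymes and a partner protein that turn arachidonic acid into prostaglandins, thromboxane and leukotrienes in BV2 cells, an immortalized murine microglial cell line. They are Pla2g4a, Ptgs1, Ptgs2, Ptges, Hpgds, Tbxas1, Alox5, Alox5ap, Lta4h and Ltc4s, and they were taken by name from the 40993 genes of the expression table, where all 10 were found. They were chosen by name when their FPKM values and differences in these same 9 libraries were already known, with no threshold on a value, so the levels and differences below are a description, and a p-value only places a gene among all genes tested. The 9 RNA-seq libraries comprise 3 controls without particles, 3 from cells given 10 µg/ml MNPs@SiO2(RITC) and 3 from cells given 100 µg/ml. The labels write these doses as 0.01 and 0.1 µg/µl. A time of 12 h is given for both treated groups, while none is given for the control libraries. MNPs@SiO2(RITC) are magnetic nanoparticles with a cobalt ferrite core and a silica shell that carries the dye rhodamine B isothiocyanate. All groups are cultures of 1 cell line, and no label states whether libraries of a group came from separate cultures, so the spread between them may be technical.

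Eicosanoids are short-lived signalling lipids. Phospholipase A2 frees arachidonic acid from membranes, and the cyclooxygenases convert it to prostaglandin H2, from which terminal synthases make prostaglandin E2, prostaglandin D2 or thromboxane A2. In the other main branch 5-lipoxygenase, helped by its activating protein, makes leukotriene A4, which is converted to leukotriene B4 or leukotriene C4. In the brain, microglia are a known source of prostaglandin D2 and thromboxane, and the cyclooxygenases are studied there as markers of inflammation.

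The level of a gene was given in FPKM, a fragment count scaled to transcript length and library depth, so that levels can be compared between genes. The FPKM of a library summed to between 473547 and 522812, and the steps between low values gave an estimated depth of 12.1 to 15.0 M fragments (M, 1000000). Of 13 markers of microglia and macrophages, 11 were at 1 FPKM or more in every library, among them Csf1r at 116 to 145 FPKM, while Cx3cr1 and P2ry12, markers of resting microglia, stayed below 1 FPKM. Their summed level was 1479 to 1666 FPKM in control, 1479 to 1562 at 10 µg/ml and 1335 to 1490 at 100 µg/ml, and its part in the values below was not tested. Of 31 markers of other cell types, 15 were at 0 in every library, including all 5 mast cell markers, and 3 exceeded 1 FPKM. Among these were Pf4 at 147 to 225 FPKM and S100a8 at 15.5 to 32.6 FPKM. Replicate 1 at 100 µg/ml deviated most from its group. Its deviation from the mean of the other libraries of its group fell along transcript length, with a Spearman coefficient of -0.599 across genes. In the others the coefficient ran from -0.34 to 0.49. The highest were replicates 2 and 3 at 100 µg/ml, whose comparison mean held replicate 1. The SD of the deviation was 0.423 in replicate 1 at 100 µg/ml, against 0.308 to 0.393 in the others. Values without that library are given where it matters.

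Promoter windows of 5 genes are shown, from the well measured Ptgs1 and Hpgds to Alox5 near 0. The window of Tbxas1 also bears on how its level was measured. Windows of Pla2g4a, Alox5ap and Lta4h, which had higher mean levels, are not shown. Each window runs from 250 bases before to 50 bases after the RefSeq start site on GRCm38.p6, 5′ to 3′ on the strand of the gene, with motif matches in capitals.
Ptgs1: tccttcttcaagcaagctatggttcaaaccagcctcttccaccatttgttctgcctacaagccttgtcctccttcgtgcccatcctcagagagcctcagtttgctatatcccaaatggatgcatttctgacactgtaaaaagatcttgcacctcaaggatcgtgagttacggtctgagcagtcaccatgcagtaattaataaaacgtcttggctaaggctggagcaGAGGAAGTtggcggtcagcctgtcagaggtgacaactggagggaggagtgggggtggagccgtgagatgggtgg
Ptgs2: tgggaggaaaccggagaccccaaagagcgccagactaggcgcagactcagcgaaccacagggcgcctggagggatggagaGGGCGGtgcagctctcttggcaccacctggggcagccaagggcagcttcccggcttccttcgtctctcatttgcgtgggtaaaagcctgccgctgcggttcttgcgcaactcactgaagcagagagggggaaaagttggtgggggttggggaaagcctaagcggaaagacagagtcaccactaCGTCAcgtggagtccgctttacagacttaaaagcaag
Hpgds: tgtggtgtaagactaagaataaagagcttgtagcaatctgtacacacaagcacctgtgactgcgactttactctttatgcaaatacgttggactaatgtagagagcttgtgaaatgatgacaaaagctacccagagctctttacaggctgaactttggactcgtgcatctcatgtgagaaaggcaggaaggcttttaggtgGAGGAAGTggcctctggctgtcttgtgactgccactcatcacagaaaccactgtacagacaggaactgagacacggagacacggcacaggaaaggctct
Tbxas1: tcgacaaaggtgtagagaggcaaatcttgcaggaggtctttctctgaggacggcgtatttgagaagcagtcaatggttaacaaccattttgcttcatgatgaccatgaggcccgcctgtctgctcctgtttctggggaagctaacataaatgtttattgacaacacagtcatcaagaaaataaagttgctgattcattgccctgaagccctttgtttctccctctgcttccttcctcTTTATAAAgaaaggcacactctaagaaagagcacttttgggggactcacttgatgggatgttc
Alox5: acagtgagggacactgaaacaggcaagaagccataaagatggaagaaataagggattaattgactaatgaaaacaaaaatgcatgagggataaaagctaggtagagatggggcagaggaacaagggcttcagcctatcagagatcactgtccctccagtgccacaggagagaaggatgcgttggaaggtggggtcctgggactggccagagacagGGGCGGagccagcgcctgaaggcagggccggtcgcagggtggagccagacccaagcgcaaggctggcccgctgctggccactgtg
The windows lie at chr2:36230176-36230475 on the plus strand for Ptgs1, chr1:150099781-150100080 on the plus strand for Ptgs2, chr6:65144681-65144980 on the minus strand for Hpgds, chr6:38918736-38919035 on the plus strand for Tbxas1 and chr6:116461129-116461428 on the minus strand for Alox5.

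Both strands were searched for the motifs named here. The RefSeq table held windows for 9 of the 10 genes, all but Alox5ap. The letters GAGGAAGT, a purine-rich site of the kind that the myeloid factor PU.1 binds, began 24 bases before the start site of Ptgs1 and 49 bases before that of Hpgds, and were held by 3.2% of all 32851 windows. The cyclooxygenase genes differed in their letters: the window of Ptgs2 held a GC box (GGGCGG, in 35.7% of windows) and a half-site of the cyclic AMP response element (CGTCA, in 20.8%), with a GC content of 59.33% and 16 CpG, whereas the window of Ptgs1 had a GC content of 50.67% and 6 CpG. The median over all windows was 52.67% and 7 CpG. In the Tbxas1 window the capitals read TATAAA on both strands, overlapping, a motif in 13.6% of windows, and in the Alox5 window they mark a GC box. Of the other genes with a window, Ptges held a pair of GC boxes, Pla2g4a held TATAAA only in the window of a second start site, and Lta4h and Ltc4s held no match. These matches describe letters, not binding.

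The 8 genes with a mean above 1 FPKM spanned 57.9 to 1.27 FPKM in mean level, while the highest library exceeded the lowest by 1.16-fold in Pla2g4a and by 5.34-fold in Tbxas1, the widest of these 8. The order of mean FPKM over the 9 libraries was Pla2g4a (57.9), Alox5ap (54.9), Lta4h (29.4), Hpgds (25.9), Ptgs1 (12.6), Ptgs2 (4.66), Tbxas1 (1.53), Ptges (1.27), Alox5 (0.0197) and Ltc4s (0). Neighbours whose ranges overlapped were Pla2g4a and Alox5ap, Lta4h and Hpgds, Tbxas1 and Ptges, and Alox5 and Ltc4s. Pla2g4a was above Alox5ap in 7 of 9 libraries, Lta4h above Hpgds in 8 of 9, and Tbxas1 above Ptges in 4 of 9, so these pairs share a rank. The mean of Pla2g4a exceeded that of 83.6% of the 11161 genes tested, and that of Ptges exceeded 2.29%.

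**Figure D1:**
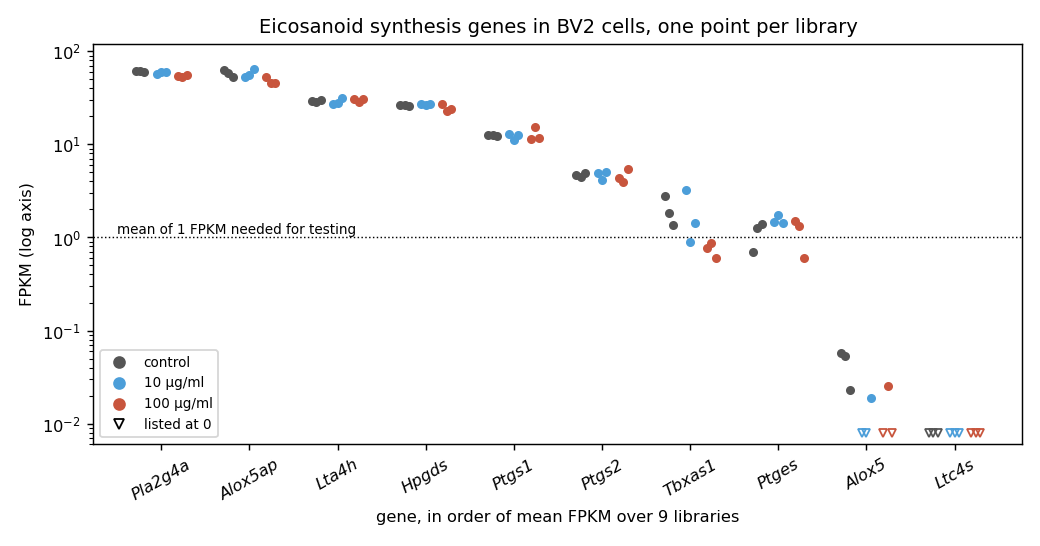
FPKM (log axis) of the 10 genes in each of 9 libraries, by treatment, in order of mean level. Open triangles mark libraries in which a gene was listed at 0, drawn at the bottom of the axis, and the dotted line is 1 FPKM, the mean a gene had to reach to be tested; the points of Tbxas1 spread from 0.599 to 3.20 FPKM, while those of Pla2g4a stay between 52.8 and 61.1.

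To compare the treatments, log2(FPKM + 1) was tested with limma across every gene that averaged 1 FPKM or more, which 8 of the 10 genes did. Alox5 and Ltc4s did not. At a Benjamini-Hochberg adjusted p of 0.05, 0 of the 8 genes were called in 100 µg/ml against control, where 2.11% of all tested genes were, 0 in 10 µg/ml against control (0% of all genes) and 0 in 100 against 10 µg/ml (0.851%). At an unadjusted p under 0.05, 3 genes were lower in 100 µg/ml against control (9.69% of all genes were), 0 differed in 10 µg/ml against control (3.28%), and 2 were lower in 100 against 10 µg/ml (7.8%). In 3 of the 8 genes, Pla2g4a, Tbxas1 and Alox5ap, the 100 µg/ml libraries lay below all control libraries, as in 11.4% of all genes, and the same 3 lay below all 10 µg/ml libraries, as in 9.99% of all genes. The 10 µg/ml libraries lay above all controls in 1 gene, Ptges (6.14% of all genes), and below them in 1, Pla2g4a (4.61%). The median log2 difference of the 8 genes was -0.08, -0.02 and -0.12 in the 3 comparisons in that order, beside -0.0016, 0.00015 and 0.00012 over all genes.

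**Figure D2:**
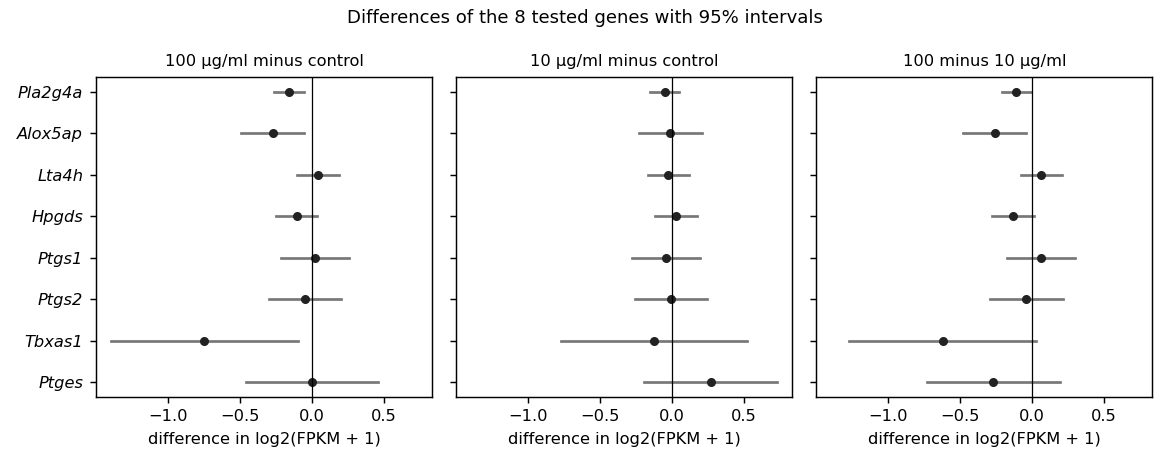
Difference in log2(FPKM + 1) of the 8 tested genes (points) with 95% intervals (lines), in 3 panels, one per comparison. In the panel of 100 µg/ml minus control the intervals of Pla2g4a, Alox5ap and Tbxas1 lie below 0 before adjustment, and in the panel of 10 µg/ml minus control all 8 intervals include 0.

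Pla2g4a (ENSMUSG00000056220, chr1:149829618-149961290, minus strand) codes for cytosolic phospholipase A2, which releases arachidonic acid after calcium signals. Its level was 61.1, 60.8 and 60.5 FPKM in the control libraries, 56.6, 60.1 and 59.3 at 10 µg/ml, and 54.4, 52.8 and 55.8 at 100 µg/ml. The groups did not overlap in any comparison: every library at 100 µg/ml was below every library at 10 µg/ml, and these were below every control. The mean at 100 µg/ml was 54.3 ± 1.52 FPKM (SD, n = 3) against 60.8 ± 0.267 (SD, n = 3) in control, a ratio of 0.894. The log2 difference was -0.16 (SE 0.05, 95% interval -0.26 to -0.06), with an adjusted p of 0.109 by limma with Benjamini-Hochberg adjustment, which missed the threshold. Against 10 µg/ml it was -0.11 (adjusted p = 0.329, limma), and for 10 µg/ml against control it was -0.05 with an interval of -0.15 to 0.05. Pla2g4a had the lowest within-group spread of the 8 genes, a pooled SD of 0.03 on the log2 scale, below that of most genes of a like level (median 0.10 over 1747 genes).

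The cyclooxygenases make prostaglandin H2, Ptgs1 as the form present in most resting cells and Ptgs2 as the form that inflammatory signals induce. Ptgs1 (ENSMUSG00000047250, chr2:36230426-36252272, plus strand) was at 12.7, 12.7 and 12.4 FPKM in control, 12.9, 11.2 and 12.6 at 10 µg/ml, and 11.5, 15.4 and 11.9 at 100 µg/ml. The groups overlapped, and replicate 2 at 100 µg/ml was the highest of the 9 libraries. The log2 difference of 100 µg/ml from control was 0.02 with a 95% interval of -0.21 to 0.26, and it turned to -0.10 without that library. Ptgs2 (ENSMUSG00000032487, chr1:150100031-150108227, plus strand) was at 4.73, 4.495 and 4.92 FPKM in control, 4.92, 4.16 and 5.01 at 10 µg/ml, and 4.41, 3.90 and 5.38 at 100 µg/ml.

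The 100 µg/ml libraries held both the lowest and the highest level of Ptgs2. Its log2 difference from control was -0.05 (95% interval -0.30 to 0.21) at 100 µg/ml and -0.01 (-0.26 to 0.24) at 10 µg/ml. On the scale of FPKM + 1 these intervals reach from 0.813-fold to 1.15-fold and from 0.835-fold to 1.18-fold, so a larger induction of Ptgs2 RNA at 12 h lies outside them. They measure the spread between these libraries, which may be technical, so they need not hold for separate cultures. The ratio of Ptgs1 to Ptgs2 in FPKM was 2.52 to 2.83 in control, 2.52 to 2.70 at 10 µg/ml and 2.20 to 3.95 at 100 µg/ml, so the treated range at the higher dose enclosed the control range.

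The terminal prostanoid synthases differed widely in level. Hpgds (ENSMUSG00000029919, chr6:65117293-65144908, minus strand), the hematopoietic prostaglandin D2 synthase, was the most abundant of the 3 described. It was at 26.3, 26.8 and 26.0 FPKM in control, 27.1, 26.7 and 26.9 at 10 µg/ml, and 26.9, 22.6 and 24.0 at 100 µg/ml. Replicates 2 and 3 at 100 µg/ml were below all other libraries, and replicate 1, the library that deviated most from its group, lay above every control. The log2 difference of 100 µg/ml from control was -0.11 (95% interval -0.25 to 0.04), and it depended on single libraries: it was -0.17 without replicate 1 at 100 µg/ml (adjusted p = 0.0699, limma) and -0.05 without replicate 2 (adjusted p = 0.668, limma). The opposite-strand gene Gm17147 overlaps Hpgds by 432 bases and was at 1.48 to 4.16 FPKM.

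Tbxas1 (ENSMUSG00000029925, chr6:38875404-39084585, plus strand) codes for thromboxane A synthase. Its level was 2.77, 1.83 and 1.36 FPKM in control, 3.20, 0.904 and 1.42 at 10 µg/ml, and 0.777, 0.880 and 0.599 at 100 µg/ml. All 3 libraries at 100 µg/ml were below all others, although replicate 2 at 10 µg/ml came within 0.0239 FPKM of them. The group means were 1.99 ± 0.719, 1.84 ± 1.21 and 0.752 ± 0.142 FPKM (SD, n = 3 each), and the ratio of 100 µg/ml to control was 0.379. The paper lists Tbxas1 in its network of metabolism and inflammation genes as lower at 100 µg/ml, by a smaller fold than this ratio. It chose changed genes with Cuffdiff, not with limma. The log2 difference was -0.74 (SE 0.29, 95% interval -1.39 to -0.10, adjusted p = 0.201 by limma). Its adjusted p lay between 0.118 and 0.448 in the refits under other settings that tested it, all but the filter at 5 FPKM. Between 10 µg/ml and control the difference was -0.13 with an interval of -0.77 to 0.52, wide enough to hold a large change either way.

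The 9 values of Tbxas1 stand for an estimated 16.2 to 86.7 fragments a library, and its within-group SD of 0.40 on the log2 scale was larger than that of 88.3% of 937 genes within 1.5-fold of its mean level. The deposited gene span also starts 43582 bases upstream of the RefSeq start site whose window is shown above, and its first 762 bases overlap Hipk2 on the opposite strand, which was at 14.7 to 30.4 FPKM. Whether reads of Hipk2 entered the value of Tbxas1 was not tested. The ratio of Hpgds to Tbxas1 in FPKM was 9.50 to 19.1 in control, 8.47 to 29.6 at 10 µg/ml and 25.7 to 40.1 at 100 µg/ml, so the range at 100 µg/ml did not overlap control and did overlap 10 µg/ml. This ratio shares the Tbxas1 values given above and is not separate evidence.

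Ptges (ENSMUSG00000050737, chr2:30889471-30929863, minus strand) codes for the inducible microsomal prostaglandin E synthase. It was at 0.697, 1.28 and 1.41 FPKM in control, 1.47, 1.73 and 1.41 at 10 µg/ml, and 1.49, 1.34 and 0.601 at 100 µg/ml. The libraries at 10 µg/ml were all above the controls, by 0.00261 FPKM at the closest pair. The log2 difference of 10 µg/ml from control was 0.27 (95% interval -0.19 to 0.73), or 0.11 without control replicate 1, and that of 100 µg/ml was 0.00087 (-0.46 to 0.46). An estimated 29.7 to 86.6 fragments a library stand behind these values. A pseudogene on the same strand, Gm13400, overlaps the gene by 380 bases and was at 0 to 1.76 FPKM. As for Tbxas1, the deposited span starts far upstream of the RefSeq start site, by 26566 bases for Ptges.

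**Figure D3:**
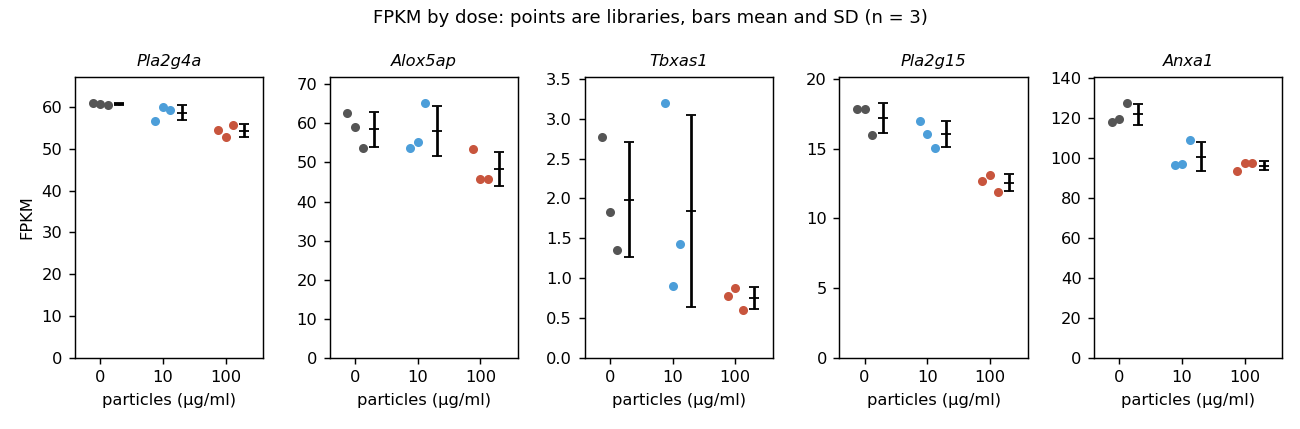
FPKM by particle dose (0, 10 and 100 µg/ml) for Pla2g4a, Alox5ap and Tbxas1 and for the pathway genes Pla2g15 and Anxa1, with axes from 0. Points are libraries and bars are mean and SD (n = 3); in each panel the 3 libraries at 100 µg/ml lie below the 3 controls, and in Tbxas1 the control points spread from 1.36 to 2.77 FPKM.

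The leukotriene branch was uneven. Alox5 (ENSMUSG00000025701, chr6:116410077-116461178, minus strand), which codes for 5-lipoxygenase, the enzyme that opens the branch, was at 0.0576, 0.0529 and 0.0227 FPKM in control, at 0 in replicates 1 and 2 and 0.0190 in replicate 3 at 10 µg/ml, and at 0.0252 in replicate 2 and 0 in replicates 1 and 3 at 100 µg/ml. These values amount to at most 2.07 estimated fragments and lie below the level of 3 fragments, 0.0709 to 0.0879 FPKM, so no fold is given. In the refit without the filter, limma gave Alox5 an unadjusted p of 0.0339 for 100 µg/ml against control. For 10 µg/ml against control it was 0.0272, and neither was called after adjustment. The values rest on so few fragments that no difference is read from them. Ltc4s (ENSMUSG00000020377, chr11:50236469-50238616, minus strand), leukotriene C4 synthase, was listed at 0 in all 9 libraries, with a level of 3 fragments at 0.279 to 0.346 FPKM. These limits cover counting error only. A value of 0 in this table need not mean that a gene was silent, since 9 genes were above 1000 FPKM in some library and at 0 in another.

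Alox5ap (ENSMUSG00000060063, chr5:149265058-149288045, plus strand) codes for the activating protein that presents arachidonic acid to 5-lipoxygenase, and it was abundant although Alox5 was not. Its level was 62.6, 59.1 and 53.6 FPKM in control, 53.6, 55.3 and 65.3 at 10 µg/ml, and 53.4, 45.7 and 45.8 at 100 µg/ml. The 100 µg/ml libraries were below all others, but replicate 1 by only 0.199 FPKM. The means were 58.4 ± 4.54 FPKM in control and 48.3 ± 4.41 at 100 µg/ml (SD, n = 3 each), a ratio of 0.827. The log2 difference was -0.27 (SE 0.10, 95% interval -0.49 to -0.05, adjusted p = 0.173 by limma), and with 1 library left out it ran from -0.34 without replicate 1 at 100 µg/ml (adjusted p = 0.0783, limma) to -0.22 without control replicate 1 (adjusted p = 0.397, limma). When log2 values were corrected for GC content and transcript length, a step chosen after the data were seen, the difference was -0.25 and passed the threshold (adjusted p = 0.0396, limma), the difference from 10 µg/ml likewise (-0.27, adjusted p = 0.0483, limma); in the 18 other refits it did not pass. At 10 µg/ml the log2 difference from control was -0.01 (-0.23 to 0.21).

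Lta4h (ENSMUSG00000015889, chr10:93453396-93484896, plus strand), whose product makes leukotriene B4, was at 29.0, 28.9 and 29.9 FPKM in control, 26.9, 28.2 and 31.4 at 10 µg/ml, and 31.0, 28.9 and 30.6 at 100 µg/ml. The groups overlapped. Its log2 difference from control was 0.04 (95% interval -0.10 to 0.19) at 100 µg/ml and -0.02 (-0.17 to 0.12) at 10 µg/ml. The ratio of Alox5ap to Lta4h in FPKM was 1.79 to 2.16 in control, 1.96 to 2.08 at 10 µg/ml and 1.495 to 1.72 at 100 µg/ml, with no overlap between 100 µg/ml and either other group. This ratio shares the Alox5ap values given above, which were already separated, and is not separate evidence.

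The rest of the pathway was read from a list of 75 other genes, of which 74 were in the table, 32 were tested, 28 were above 0 but too low to test and 14 were at 0 in every library. In 100 µg/ml against control 2 of the 32 were called, both lower (1.41% of all genes were called lower), and 0 in each of the other comparisons (limma, Benjamini-Hochberg adjustment). At an unadjusted p under 0.05 there were 6 lower and 2 higher in 100 µg/ml against control (9.69% and 9.67% of all genes), 2 in 10 µg/ml against control (3.28%), and 5 lower and 1 higher in 100 against 10 µg/ml (7.8% and 6.49%). The called genes were Pla2g15, the lysosomal phospholipase A2, and Anxa1, which codes for annexin A1, a glucocorticoid-induced protein known to restrain cytosolic phospholipase A2. Pla2g15 was at 17.9, 17.8 and 16.0 FPKM in control, 16.9, 16.1 and 15.1 at 10 µg/ml, and 12.7, 13.1 and 11.9 at 100 µg/ml. It fell by 0.43 on the log2 scale (SE 0.07, adjusted p = 0.0196, limma), with an adjusted p of 0.0247 to 0.101 when 1 library was left out. Anxa1 was at 118.0, 119.5 and 127.6 FPKM in control, 96.2, 96.8 and 108.9 at 10 µg/ml, and 93.5, 97.2 and 97.4 at 100 µg/ml. It fell by 0.34 at 100 µg/ml (SE 0.06, adjusted p = 0.0285, limma; 0.0292 to 0.110 when 1 library was left out), and both treated groups lay below control. Left out one at a time, control replicate 1, control replicate 2 or replicate 3 at 100 µg/ml brought the count of called genes to 0, whereas without replicate 1 at 100 µg/ml it was 4.

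**Figure D4:**
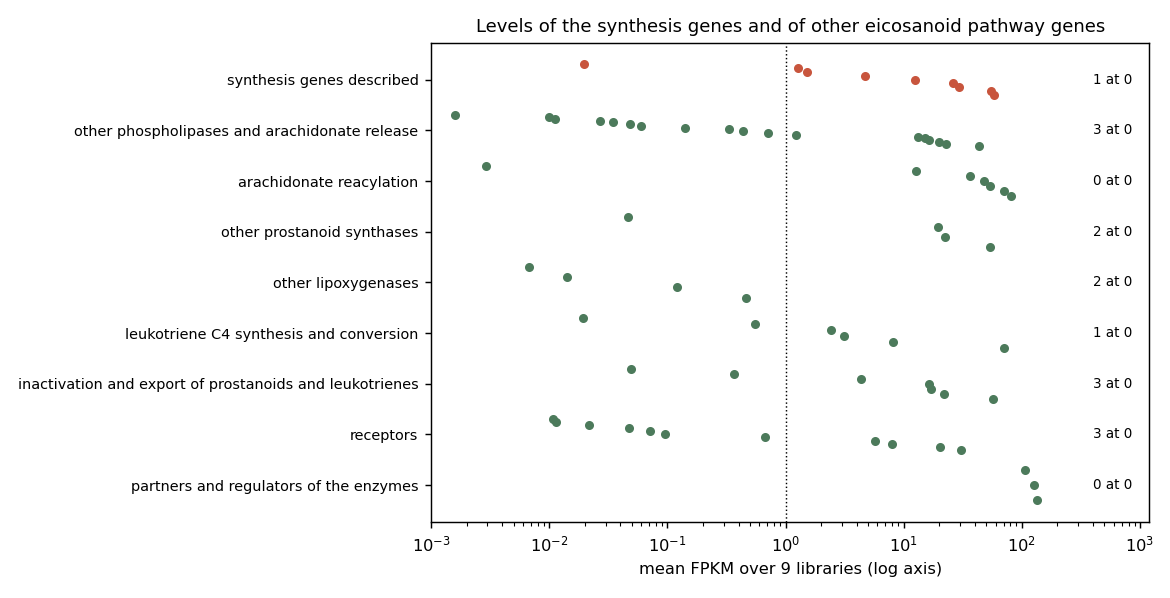
Mean FPKM over 9 libraries (log axis) of the 10 synthesis genes (top row) and of the 74 other pathway genes by role, one point per gene. Genes at 0 in every library are counted at the right, 14 in all among the other genes, and the dotted line marks 1 FPKM; none of the other lipoxygenases lies right of that line.

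By role, the steps before and after the 10 genes were present at different levels. Of the other phospholipases and lipases that release arachidonic acid or its precursors 7 of 21 were tested, led by the secreted Pla2g5 at 33.3 to 55.4 FPKM, and of the reacylation enzymes, which return arachidonic acid to membranes, 6 of 7, led by Acsl5 at 78.0 to 85.7 FPKM. Ptges3, known as a cytosolic prostaglandin E synthase and as a co-chaperone, was at 45.6 to 65.1 FPKM, above Ptges in every library. None of 6 other lipoxygenases reached a mean of 1 FPKM. Of 8 other genes listed for leukotriene C4 synthesis and conversion 4 were tested and 0 were called. Abcc1 led them at 50.6 to 76.6 FPKM, and Mgst2 was at 6.06 to 9.90 FPKM, although Ltc4s was listed at 0. Hpgd, the enzyme that begins prostaglandin breakdown, and Ptgds, the lipocalin-type prostaglandin D2 synthase, were listed at 0 in all 9 libraries. Other genes of inactivation and export were present: of 10 listed 5 were tested, led by Ptgr2 at 51.5 to 61.4 FPKM, and 0 were called. Among receptors 4 of 14 were tested and 0 were called. The 100 µg/ml libraries lay below all controls in 2 of the 4 and above them in 1, beside 11.4% and 12.5% of all genes. Ptger4, a prostaglandin E2 receptor, was 1 of the lower ones, with a log2 difference of -0.33 that missed the threshold (adjusted p = 0.0591, limma) and passed it after the correction for GC content and transcript length (-0.32, adjusted p = 0.0299, limma). Ptgir, the prostacyclin receptor, was the higher one, at 20.3, 19.4 and 18.9 FPKM in control and 21.7, 21.9 and 21.4 at 100 µg/ml, a log2 difference of 0.14 (adjusted p = 0.193, limma).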

How the data were processed

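The 9 libraries, 3 per group, were grouped by the treatment in their labels. For extraction the paper names a TruSeq Stranded Total RNA kit, and mRNA was selected with oligo(dT). For the adapter steps on cDNA it names a TruSeq RNA Sample Prep Kit. Whether strand was used in counting is not given. The deposited FPKM values are the authors' Cufflinks 2.1.1 estimates from TopHat alignments to mouse Ensembl release 77. Fragment counts were not used; depth and fragments per gene were estimated from the steps between low FPKM values of 1071 genes and are approximate (70.3 to 80.7% of values within 0.25 fragments of a whole number).

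FPKM was transformed to log2(FPKM + 1), and the 11161 genes that averaged 1 FPKM or more were fitted with limma 3.58.1 in R 4.3.3 (3 groups in one fit, eBayes with trend, Benjamini-Hochberg adjustment over all of them, called at an adjusted p of 0.05). Such differences understate the change of low genes. Tables were made with Python 3.11.15, pandas 2.3.3, numpy 2.4.6 and scipy 1.17.1. The 10 genes, the list of 75 pathway genes and the marker lists were chosen with earlier results of these data known. Named genes are the 10, called pathway genes, the highest genes of a role, and a few others chosen after their values were seen; the values of 1 marker and the highest receptor are not reported here. Of simulated sets of 200 genes changed between 100 µg/ml and control among 11161, the fit called 183 at a log2 change of 1 (3 false calls) and 130 at 0.6 (7 false calls). The simulated spread was independent between genes. Deviations of the real libraries ran along transcript length, so these counts need not hold for them. Alternatives were pseudocounts of 0.1 and 0.01, no filter or a filter at 5 FPKM, quantile and median-of-ratios scaling, a replicate block, no trend, only the 6 libraries compared, and each library left out. Promoter windows are from RefSeq (GRCm38.p6).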

Additional observations from a re-analysis of the deposited data

How the results depend on the processing

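With 3 libraries a group the smallest changes of low genes were out of reach, and Alox5, Ltc4s, Ptges and Tbxas1 rest on few fragments. None of the 8 tested genes was called in any of 18 refits under other settings. Ptgs2, Tbxas1 and Ptges were not in the refit with a filter at 5 FPKM. After the GC content and length correction (span 0.5, 11076 genes with values, chosen after the data were seen) 1 of them, Alox5ap, was called in 100 µg/ml against control and 1 in 100 against 10 µg/ml; the cause was not tested. In 100 µg/ml against control the 2 called pathway genes became 1 with quantile normalization, 0 with only the 6 libraries compared, 4 with the GC content and length correction, and 0 to 4 when 1 library was left out; in 100 against 10 µg/ml the correction called 1 pathway gene in place of 0.

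With 1 library left out, the log2 difference of 100 µg/ml from control was -0.18 to -0.14 for Pla2g4a, -0.17 to -0.05 for Hpgds, -0.90 to -0.56 for Tbxas1 and -0.34 to -0.22 for Alox5ap, and that of 10 µg/ml from control was 0.11 to 0.37 for Ptges. Log2 differences that changed sign were all uncalled. Ptges in 100 µg/ml against control was -0.0153 with a pseudocount of 0.1, -0.0207 with 0.01 and -0.00083 with median-of-ratios scaling. In 10 µg/ml against control, Ptgs2 became 0.0113 with the GC content and length correction, and Alox5ap became 0.00039 with quantile normalization and 0.0216 with that correction. With 1 library left out, the ranges that crossed 0 in 100 µg/ml against control were -0.10 to 0.10 for Ptgs1, -0.15 to 0.0402 for Ptgs2 and -0.15 to 0.20 for Ptges. In 10 µg/ml against control they were -0.0736 to 0.0169 for Ptgs1, -0.0479 to 0.0624 for Ptgs2, -0.45 to 0.12 for Tbxas1, -0.10 to 0.0421 for Alox5ap and -0.0849 to 0.0224 for Lta4h. In 100 against 10 µg/ml they were -0.0599 to 0.14 for Ptgs1 and -0.14 to 0.0480 for Ptgs2.

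Over all genes, 236 were called in 100 µg/ml against control and 95 in 100 against 10 µg/ml. The replicate block called 106 and 13, the fit of only the 6 libraries 27 and 7, and the GC content and length correction 803 and 321; with 1 library left out the counts were 28 to 530 and 8 to 189. In 10 µg/ml against control 0 genes were called, against 4 without the filter, 1 with only the 6 libraries compared and 0 to 2 with 1 library left out. Whether replicate numbers pair the libraries was not settled, since weak correlations cannot exclude it. Of 9 same-numbered pairs, 1 had a correlation of deviations over 0.1 (range -0.088 to 0.153, against -0.166 to 0.143 for the other 18 pairs). With the replicate block 0 of the 8 genes and 2 pathway genes were called in 100 µg/ml against control.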
